A study of Homo sapiens with 10 samples.

Results

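The interferon response and viral sensing genes described here are 44 human genes chosen by name: genes that interferons induce, receptors and adaptors that detect viral RNA or DNA, and genes of class I antigen presentation that interferons raise. They are 44 of the 24050 genes listed in at least 1 of 2 count tables, one for HEK293T cells and one for neural progenitor cells (NPCs). The study asked what is lost with ZNF274, a KRAB zinc finger protein that recruits heterochromatin to its binding sites. The question here is whether its loss went with higher levels of these 44 genes. HEK293T is a line from human embryonic kidney that carries the SV40 large T antigen, and the NPCs were grown from H1 human embryonic stem cells through embryoid bodies. WT HEK293T cells gave the libraries S15, S16 and S17, and ZNF274 knockout (KO) HEK293T cells gave S18, S19 and S20. WT NPCs gave S3 and S5, and ZNF274 KO NPCs gave S1 and S2. In the KO lines the whole gene had been removed by Cas9 with a guide on each side of it, in cells cloned after puromycin selection. The NPC knockout was made in the stem cells before they were differentiated. Clones are named as independent, but the labels do not say which clone each library came from, so p-values measure the spread between these libraries. No library was treated with interferon or a virus.

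Cells detect foreign nucleic acid with receptors such as RIG-I, MDA5 and TLR3, whose signals pass through adaptors to the transcription factors IRF3 and IRF7 and switch on interferon genes. Secreted interferons bind their receptors on the same and neighbouring cells, and JAK kinases then activate factors such as STAT2 and IRF9, which act at the interferon-stimulated response element in the promoters of many genes. Pluripotent stem cells are known for a weak interferon response that is gained with differentiation. HEK293T cells are known to lack several sensors.

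ZNF274 checked the genotype labels: it had 445, 423 and 492 counts in WT and 0, 0 and 0 in KO HEK293T libraries, and 491 and 496 counts in WT and 0 and 0 in KO NPC libraries. The HEK293T libraries held 21421013 to 32285876 counts, with S18 the shallowest, and the NPC libraries held 18621266 to 23035490. Levels are given in CPM (the usual scaled count, here relative to the TMM-adjusted size of each library), in the order S3 and S5 for WT NPCs, S1 and S2 for KO NPCs, S15 to S17 for WT HEK293T and S18 to S20 for KO HEK293T. Genes were called with the quasi-likelihood test of edgeR at a p below 0.05, adjusted over all genes tested, together with a fold change (FC) above 2, and each log2 FC is given with its standard error (SE). The markers fixed for the NPC label differed with genotype. NES, the progenitor filament gene, was at 2264 and 2996 CPM in WT and 3183 and 3087 CPM in KO NPCs and was not called. However, 9 of 12 neural progenitor markers were called lower in KO, among them SOX2 (227 and 219 CPM in WT and 12.7 and 21.1 CPM in KO) and PAX6 (87.9 and 78.5 CPM in WT and 25.6 and 41.8 CPM in KO). Of 12 mesenchymal markers 6 were called higher, among them COL1A1 (644 and 558 CPM in WT and 3457 and 3504 CPM in KO). With robust estimation in edgeR 3 of those 6 were called. The 2 KO NPC libraries thus stood apart from the WT ones in cell identity markers as well as in genotype, and in bulk RNA fewer cells of a type and less RNA per cell cannot be told apart. For the HEK293 line, 3 listed markers were measured, and none had more than 23 counts in a HEK293T library.

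In NPCs 22 of the 44 genes rose in KO and none fell, by edgeR. Of all 20577 genes tested, 8.45% were called higher and 8.36% lower. The fitted log2 FC was above 0 for 42 of the 44 genes, against 48.8% of all genes, and its median was 1.51 against -0.02. Both KO libraries lay above both WT libraries for 38 of the 44, against 33.3% of all genes. With no FC threshold 24 genes passed as higher, against 3078 of all 20577. At an unadjusted p below 0.05 there were 33 genes, all higher, against 20.6% of all genes. The genes that rose came from all 8 roles described here. All 44 passed the filter on low counts, OAS2, OASL and XAF1 through the KO libraries alone, and of the other 41 genes 19 were called. DESeq2 called 24 of the 44 higher, voom 25 and robust estimation in edgeR 17, and without a single library the count ran from 15 (without S1, or without S2) to 30 (without S5).

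**Figure D1:**
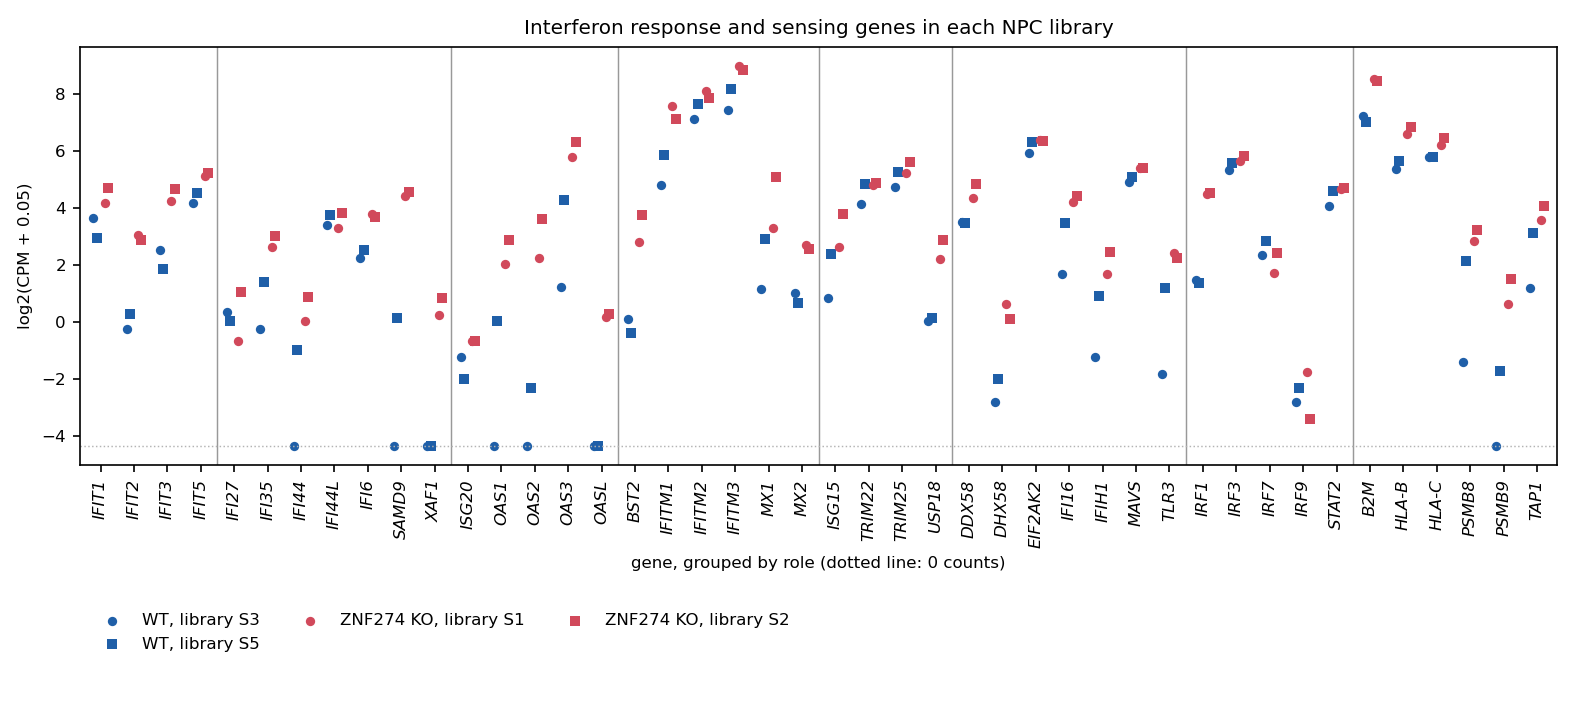
Level of each of the 44 genes in the 4 NPC libraries, as log2(CPM + 0.05), grouped by role. Blue points are WT and red points KO libraries. For 38 genes both red points lie above both blue points, and OASL and XAF1 sit at 0 counts in both WT libraries.

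Many promoters of this group hold the core of the interferon-stimulated response element, and the called genes are shown with it since it is a sequence they could share. RefSeq promoter windows on GRCh38.p14, from 250 bases before to 50 bases after a gene's start, were found for 34 of the 44 genes. Those not matched were IFIT2, DHX58, MX2, OAS2, OASL, IRF3, IRF7, USP18, TRIM22 and IFITM2. Both strands were searched for GAAA followed by any 2 bases and a further GAAA, and overlapping matches were counted separately. The letters were found in at least 1 window of 21 of the 34 genes (61.8%), against 1195 of 27305 genes in the table (4.38%). Counted by window, 25 of 43 windows (58.1%) held them, against 3.57% of all windows. They were in 9 of the 16 matched genes that were called in KO NPCs and in 12 of the 18 matched genes that were not called. In the lines below each site has 10 bases on each side, is written 5′ to 3′ on the strand of the gene, and has the matched letters in capitals. A match on the opposite strand reads as TTTC, any 2 bases and TTTC. The 9 called genes come first:
IFIT1 (chr10:89392497-89392526, plus strand): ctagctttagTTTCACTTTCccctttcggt
IFIT3 (chr10:89332468-89332497, plus strand): gttccatcagTTTCACTTTCctttcccctt
IFI6 (chr1:27672329-27672358, minus strand): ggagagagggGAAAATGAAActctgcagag
OAS3 (chr12:112938321-112938350, plus strand): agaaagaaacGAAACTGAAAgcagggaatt
BST2 (chr19:17405741-17405770, minus strand): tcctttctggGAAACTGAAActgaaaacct
B2M (chr15:44711369-44711398, plus strand): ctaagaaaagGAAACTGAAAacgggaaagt
IFITM1 (chr11:314024-314053, plus strand): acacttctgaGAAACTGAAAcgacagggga
IFITM3 (chr11:320876-320905, minus strand): aaactgttgaGAAACCGAAActactgggga
SAMD9 (chr7:93118096-93118125, minus strand): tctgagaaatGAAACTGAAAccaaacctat
Matches were also present in genes that were not called, of which 4 are shown for comparison:
ISG15 (chr1:1013380-1013409, plus strand): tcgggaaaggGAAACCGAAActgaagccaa
IFIH1 (chr2:162318686-162318715, minus strand): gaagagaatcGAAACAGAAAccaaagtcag
TLR3 (chr4:186069142-186069171, plus strand): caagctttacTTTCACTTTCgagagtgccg
IFI44L (chr1:78620274-78620303, plus strand): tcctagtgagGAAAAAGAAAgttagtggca
The called genes IRF1, PSMB9, DDX58, HLA-B, IFI35, OAS1 and XAF1 had none of these letters in their windows. A near form, with 1 base between the 2 GAAA, was not searched for. It is present in windows of OAS1, DDX58, XAF1 and IFI35, so the counts above hold for the 2-base spacing alone. A match is a description of the sequence and not evidence of a bound factor.

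The IFIT genes code for cytoplasmic proteins that bind viral RNA lacking the host's cap methylation, and lie together on chromosome 10 (IFIT3 at chr10:91087064-91137230 in hg19). All 4 were higher in both KO NPC libraries and 3 were called. IFIT2 was at 0.805 and 1.18 CPM in WT and 8.3 and 7.3 CPM in KO (log2 FC 2.97, SE 0.34, adjusted p 0.00109). IFIT3 was at 5.77 and 3.63 CPM in WT and 18.9 and 25.8 CPM in KO (log2 FC 2.25, SE 0.29, adjusted p 0.00175). Both genes had KO levels several times their highest WT level. IFIT1 was at 12.5 and 7.78 CPM in WT and 18.4 and 26.3 CPM in KO (log2 FC 1.13, SE 0.29, adjusted p 0.0248). Its WT libraries were themselves apart, and its call was lost without S5 (log2 FC 0.83), without S1 (adjusted p 0.0526) and without S2 (adjusted p 0.185). IFIT5 passed the adjusted p alone, with an FC of 1.77 (adjusted p 0.0116).

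The OAS proteins make 2′-5′ linked oligoadenylates on double-stranded RNA as a messenger of the antiviral response, and OASL is a relative without that activity. OAS1, OAS2 and OAS3 lie side by side on chromosome 12 (OAS2 at chr12:113416200-113449528). All 4 OAS genes rose in KO NPCs. OAS2 had 0 and 3 counts in WT and 95 and 270 in KO, and the ratio of pooled counts was 117 with a 95% counting interval of 39.6 to 568 (adjusted p 0.00186). OASL had 0 and 0 counts in WT and 22 and 26 in KO and was at least 7.64-fold higher, against a floor of 3 counts per library (adjusted p 0.0065). These 2 genes were at or under that floor in WT. OAS3 was at 2.32 and 19.4 CPM in WT and 55.6 and 81.1 CPM in KO (log2 FC 2.66, SE 0.76, adjusted p 0.0382). OAS1 was at 0 and 0.972 CPM in WT and 4.05 and 7.43 CPM in KO (log2 FC 3.58, SE 0.99, adjusted p 0.0344). For OAS1 and OAS3 the WT library S5 was well above S3, yet below both KO libraries. The log2 FC of OAS1 ran from 2.56 without S3 to 9.93 without S5 (which left its WT group at 0 counts), and that of OAS3 from 1.81 to 4.87 with the same libraries left out. Their calls were lost with DESeq2 (adjusted p 0.269 for OAS1 and 0.0991 for OAS3). Robust estimation lost them too (adjusted p 0.126 and 0.242), and OAS3 was lost with a stricter count filter (filterByExpr, adjusted p 0.0502). They were lost as well without S1 (0.0818 and 0.087) and without S2 (0.161 and 0.133). ISG20, an RNA exonuclease, stayed under 1 CPM in all 4 libraries and was not called (adjusted p 0.349).

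Among the other interferon-induced genes, 4 of 7 rose. SAMD9, an antiviral and growth-limiting factor on chromosome 7 (chr7:92728826-92747336), was at 0 and 1.07 CPM in WT and 21.3 and 23.9 CPM in KO (log2 FC 5.42, SE 0.82, adjusted p 0.00326). It had 0 counts in S3 and 21 in S5, so its log2 FC ran from 4.39 without S3 to 11.90 without S5, and neither DESeq2 nor robust estimation called it (adjusted p 0.0703 and 0.0557). XAF1, a pro-apoptotic antagonist of XIAP, had 0 and 0 counts in WT and 23 and 39 in KO and was at least 9.79-fold higher (adjusted p 0.00487). On either strand 38.3% of its exonic length is shared with another gene, and whether featureCounts used the strand is not given in the sources used here. IFI6, a mitochondrial and endoplasmic reticulum protein, was at 4.69 and 5.78 CPM in WT and 13.9 and 13 CPM in KO (log2 FC 1.36, SE 0.23, adjusted p 0.00513), and without S1 its adjusted p was 0.0613. IFI35 was at 0.805 and 2.61 CPM in WT and 6.17 and 8.2 CPM in KO (log2 FC 2.08, SE 0.52, adjusted p 0.0239). By ratio the WT values of IFI35 were further apart than its KO values. Its call was lost without S1 (adjusted p 0.0737) and without S2 (0.123). Not all of this group moved. IFI27 had WT values of 1.23 and 0.972 CPM between KO values of 0.593 and 2.03 CPM. IFI44L, one of the usual markers of an interferon response, was at 10.7 and 13.6 CPM in WT and 9.98 and 14.1 CPM in KO (log2 FC -0.01, SE 0.25). Its neighbour IFI44 had 0 and 9 counts in WT and 20 and 40 in KO (adjusted p 0.111).

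The MX proteins are GTPases that trap incoming viral capsids, the IFITM proteins sit in membranes and block fusion, and BST2 (tetherin) holds budding virions at the cell surface. All 6 genes of this kind were higher in both KO libraries and 4 were called. BST2 was at 1.04 and 0.717 CPM in WT and 7.06 and 13.7 CPM in KO (log2 FC 3.55, SE 0.44, adjusted p 0.00144). MX2 was at 1.99 and 1.54 CPM in WT and 6.52 and 5.86 CPM in KO (log2 FC 1.81, SE 0.31, adjusted p 0.00583), with an adjusted p of 0.0615 without S1. MX1 was at 2.22 and 7.47 CPM in WT and 9.83 and 33.8 CPM in KO and was not called (adjusted p 0.0535). The 3 IFITM genes were the most abundant of the group. IFITM1 was at 28 and 58.3 CPM in WT and 191 and 141 CPM in KO (log2 FC 1.94, SE 0.33, adjusted p 0.00508), and robust estimation did not call it (adjusted p 0.0669). IFITM3 was at 174 and 293 CPM in WT and 509.6 and 457 CPM in KO (log2 FC 1.05, SE 0.23, adjusted p 0.014). IFITM2 was at 140.1 and 202 CPM in WT and 276 and 233 CPM in KO and was not called (adjusted p 0.0559). IFITM3 stood just past the FC threshold, and its FC fell below 2 without S3 (log2 FC 0.72), without S1 (0.97) and with library size alone as the normalization (0.93). Its adjusted p was 0.0502 with robust estimation and 0.0686 with all 10 libraries in 1 fit. The IFITM genes are near copies of each other, so reads from stretches they share were not counted, and their levels are uncertain to that extent. Per length, IFITM2 and IFITM3 were the highest of the 44 genes in WT NPCs, at 107 and 82.2 RPKM (the CPM divided by the exonic length in kilobases), followed by B2M at 45.4 RPKM.

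Of the genes that detect nucleic acid or pass the signal on, 2 of 7 rose, both RIG-I-like helicases. DDX58, which codes for RIG-I and is named RIGI in current annotation, was at 11.4 and 11.3 CPM in WT and 20.5 and 28.6 CPM in KO (log2 FC 1.12, SE 0.21, adjusted p 0.00807). DHX58, which codes for the regulator LGP2, was at 0.0947 and 0.205 CPM in WT and 1.53 and 1.04 CPM in KO (log2 FC 3.06, SE 0.70, adjusted p 0.0171). DHX58 lay under 2 CPM in every NPC library. The call of DDX58 was lost without S2 (adjusted p 0.1), and that of DHX58 without S1 (0.131) and without S2 (0.0574). With 43.2% of its exonic length on the same strand as another gene, DDX58 may have lost or shared counts. The called genes IFI6 (23.1%), IFITM1 (21.1%), IFIT2 (12.1%) and PSMB9 (5.2%) also shared exonic length on their strand. The third helicase, IFIH1 (MDA5), was at 0.379 and 1.84 CPM in WT and 3.21 and 5.54 CPM in KO (adjusted p 0.0652). TLR3, the endosomal receptor of double-stranded RNA, was at 0.237 and 2.25 CPM in WT and 5.38 and 4.68 CPM in KO (adjusted p 0.0937), and IFI16, a DNA sensor, at 3.17 and 11.1 CPM in WT and 18.6 and 21.6 CPM in KO (adjusted p 0.0614). In these 3 uncalled genes S3 was the lowest library and S5 lay between S3 and the KO libraries. The adaptor MAVS (log2 FC 0.40) and the kinase PKR, coded by EIF2AK2 (log2 FC 0.25), were not called.

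IRF1 had the lowest adjusted p of the 44 genes and was the only one of 5 transcription factors that rose. IRF1 (ENSG00000125347, chr5:131776132-131844411) is induced mainly by interferon gamma and drives antigen presentation genes. It was at 2.75 and 2.56 CPM in WT and 22.8 and 23.3 CPM in KO (log2 FC 3.12, SE 0.21, adjusted p 0.000143), and the libraries within each group differed little. IRF1 was called under every alternative run in NPCs, as were IFIT2, IFIT3, OAS2, OASL, USP18, BST2, HLA-B and B2M, and XAF1 was called under all of them but the fit of all 10 libraries, which could not include it. On either strand 22.9% of the exonic length of IRF1 is shared with other genes, among them an antisense gene. STAT2, IRF3, IRF7 and IRF9, which act in the signalling of type I interferon, were not called. Their fitted log2 FC was 0.33 for STAT2, 0.28 for IRF3, -0.49 for IRF7 and 0.21 for IRF9, with SE of 0.20, 0.14, 0.34 and 1.28. IRF9 had at most 5 counts in any NPC library.

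Class I molecules show peptides cut by the proteasome on the cell surface, with B2M as their invariant chain. All 6 genes of this role were higher in both KO libraries and 3 were called. B2M (ENSG00000166710, chr15:45003556-45011049) was at 151 and 132 CPM in WT and 372 and 352 CPM in KO (log2 FC 1.35, SE 0.11, adjusted p 0.000324). HLA-B was at 41.3 and 50.4 CPM in WT and 98.1 and 115 CPM in KO (log2 FC 1.21, SE 0.15, adjusted p 0.00128). PSMB9, an immunoproteasome subunit, was at 0 and 0.256 CPM in WT and 1.53 and 2.84 CPM in KO (log2 FC 4.07, SE 0.95, adjusted p 0.0188). Its log2 FC ran from 3.07 without S3 to 8.54 without S5, which left WT at 0 counts, and its call was lost without S2 (adjusted p 0.114). HLA-C passed the adjusted p alone, with an FC of 1.47 (adjusted p 0.0169). TAP1, the peptide transporter, was at 2.27 and 8.75 CPM in WT and 12 and 16.7 CPM in KO (adjusted p 0.104), and PSMB8 at 0.331 and 4.35 CPM in WT and 7.16 and 9.5 CPM in KO (adjusted p 0.15). HLA genes resemble each other and 30.7% of the exonic length of HLA-B lies under another gene on its strand, so the split of reads between them is uncertain.

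ISG15 is a ubiquitin-like protein that is attached to other proteins and removed by USP18, and the TRIM proteins are ubiquitin ligases. USP18 was the only one of these 4 genes that rose, at 0.994 and 1.07 CPM in WT and 4.59 and 7.43 CPM in KO (log2 FC 2.53, SE 0.38, adjusted p 0.00327). Both KO libraries were above 4 CPM and both WT libraries near 1 CPM. ISG15 itself was at 1.75 and 5.27 CPM in WT and 6.17 and 13.8 CPM in KO and was not called (adjusted p 0.0892). TRIM22 (log2 FC 0.31) and TRIM25 (log2 FC 0.40) had overlapping groups.

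**Figure D2:**
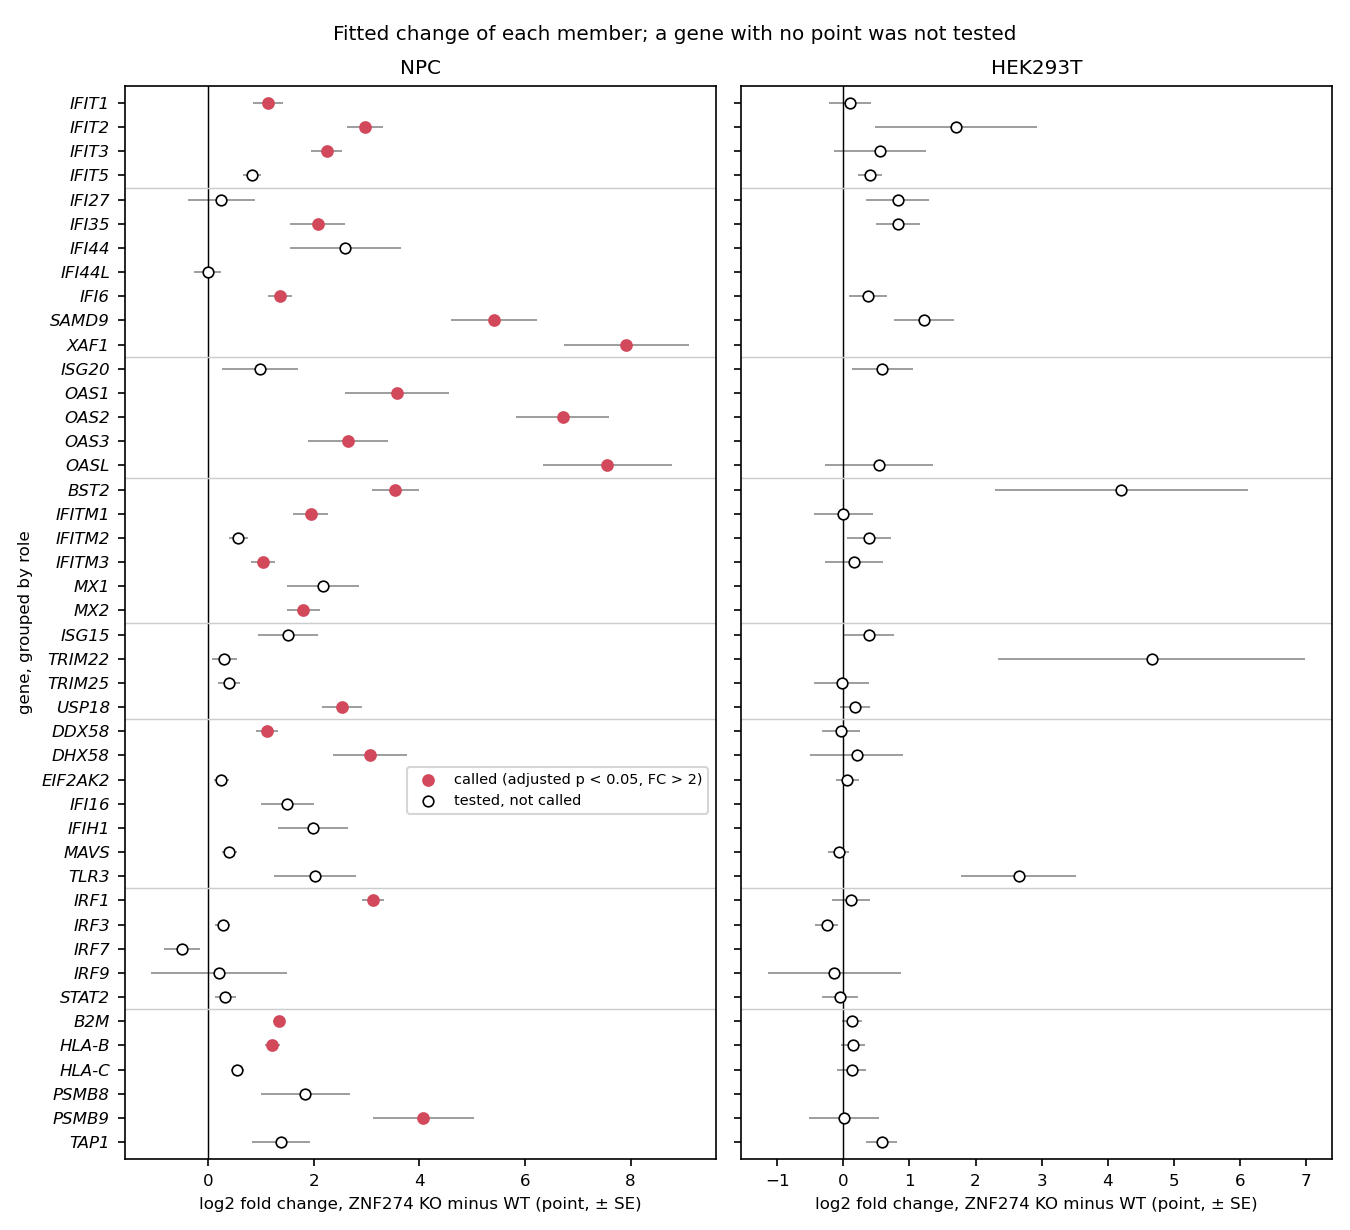
Fitted log2 FC of KO over WT for each gene, with its SE, in NPCs (left) and HEK293T cells (right). Red points are called genes: 22 on the left and none on the right. Genes with no point on the right had too few counts or were not listed there, and the widest bars there belong to BST2 and TRIM22, which had 0 counts in all 3 WT libraries.

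The 2 WT NPC libraries were not alike in these genes. S3 was the lowest of the 4 libraries for 29 of the 44 genes, against 24.9% of all genes, and S5 was lower than all others for 9. S5 exceeded S3 in 34 of 44 genes with a median difference of 0.51 on the log2 scale, and by more than 1 in 15 genes, against a median of 0.03 and 10.1% over all genes. S2 exceeded S1 in 31 of 44, with a median of 0.23, against 48.6% and a median of -0.01 over all genes. Of all genes 52.6% were higher in S5 than in S3. The summed level of the 44 genes was 876 CPM in S3, 1191 in S5, 2121 in S1 and 2130 in S2. Both KO sums thus lay above both WT sums, and the gap between S5 and either KO library was larger than that between the WT libraries. These sums speak mainly for abundant genes. In S3, S5, S1 and S2 the MX and membrane factors summed to 348, 564, 1000 and 884 CPM. Class I genes summed to 252, 251, 566 and 585 CPM in the same order. Leaving out S3 gave the 44 genes a median log2 FC of 1.23, and leaving out S5 gave 2.23. Of the 22 called genes, the fitted FC moved by more than 1.5 times without S3 in 6 (IFI35, OAS1, OAS2, OAS3, PSMB9 and SAMD9) and without S5 in those 6 and in DHX58 (log2 FC 3.67) and IFITM1 (2.56). For IFI35 the log2 FC was 1.46 without S3 and 3.14 without S5. Leaving out S2 moved the FC of OAS2 by more than 1.5 times. With all libraries kept, voom moved that of OAS1, OAS3, OASL, PSMB9, SAMD9 and XAF1 by as much, and DESeq2 that of OASL and XAF1.

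**Figure D3:**
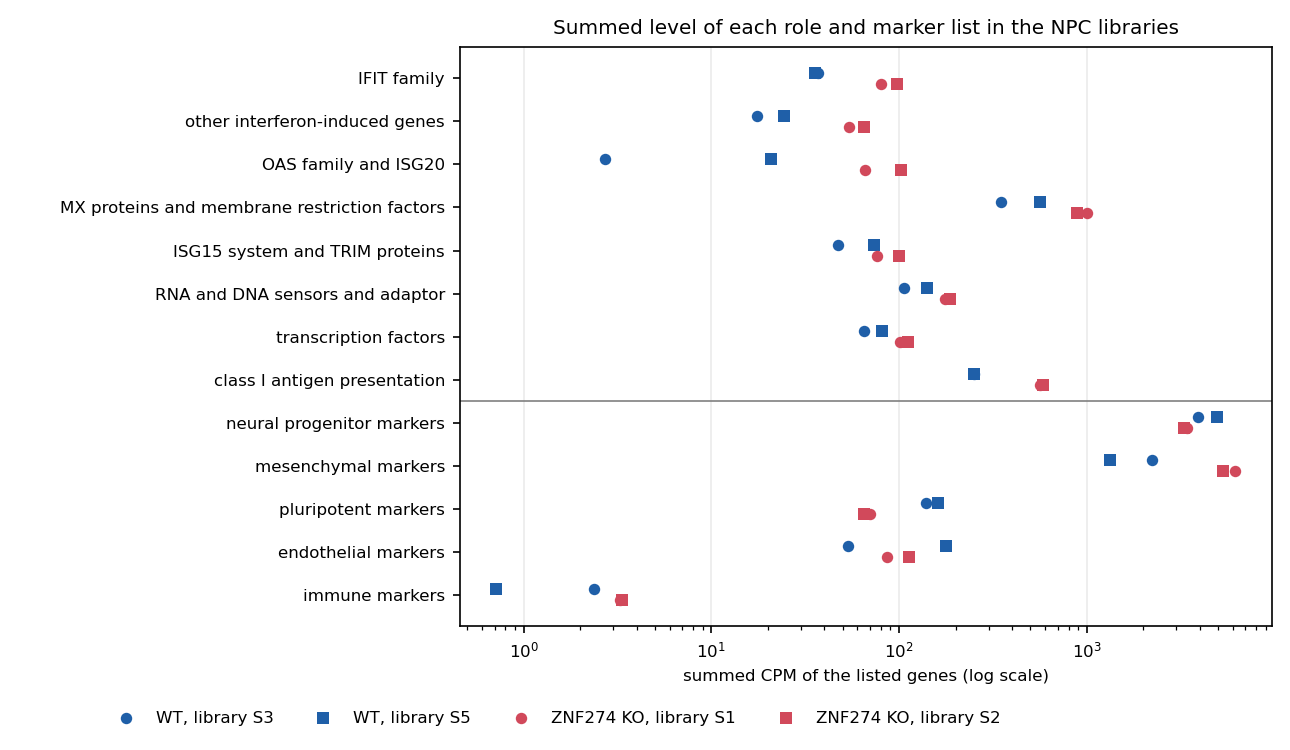
Summed CPM of the genes of each role and of 5 marker lists in the 4 NPC libraries, on a log scale. In all 8 roles both KO libraries (red) lie above both WT libraries (blue), and the mesenchymal and immune lists do the same while the neural progenitor and pluripotent lists go the other way.

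Cell identity markers moved with the same genotype. The summed neural progenitor markers were at 3901 and 4953 CPM in WT and 3412 and 3311 CPM in KO. Most of that sum was NES, and without it the other 11 summed to 1637 and 1957 CPM in WT and 229 and 224 CPM in KO. Much of this remainder was MAP2, at 992 and 1089 CPM in WT and 166 and 129 CPM in KO. The whole list had a median log2 FC of -3.70. The mesenchymal markers were at 2220 and 1332 CPM in WT and 6174 and 5301 CPM in KO. The gap between the WT sums was largest in COL1A2 (1317 CPM in S3 and 590 CPM in S5), which was not called in KO (log2 FC 0.07). COL6A3, LUM and POSTN were lower in S3 than in S5. Pluripotent markers summed to 139 and 161 CPM in WT and 70.4 and 65.1 CPM in KO, and of the 4 measured 1 was called lower (LIN28A, 63.7 and 84.7 CPM in WT and 1.14 and 1.85 CPM in KO) and 1 higher (ZFP42, 1.09 and 0.102 CPM in WT and 5.98 and 5.04 CPM in KO, adjusted p 0.0182). ZFP42 was not called without S1 or without S2. Of 4 endothelial genes measured 2 were called higher (CDH5 and EGFL7) and 1 lower (KDR), of which robust estimation kept 1 and 0, with sums of 53.6 and 178 CPM in WT and 86.3 and 112 CPM in KO. Immune cell markers stayed low in every library: 5 of the 8 were measured, none was called by edgeR or had an unadjusted p below 0.05, their sum was 0.717 to 2.37 CPM in WT and 3.26 to 3.33 CPM in KO, and the fitted change was above 0 for 4 of the 5. AIF1, the most abundant of them, had 29 and 8 counts in WT and 39 and 63 in KO (unadjusted p 0.051), CSF1R had 4 and 5 counts in WT and 17 and 10 in KO, and PTPRC, the one below 0, had 15 and 1 counts in WT and 2 and 0 in KO. The part of the differing cell identity in the rise of the interferon genes was not tested, and with 2 libraries per genotype it cannot be told apart from the knockout.

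Other genes of the pathway were taken from lists chosen like the 44, with earlier results of these data known. None of 21 interferon genes was listed in either table, so the ligands were not analysed here. Of 15 receptor and JAK-STAT genes tested in NPCs, 4 rose and 1 fell, with a median log2 FC of 0.60 against -0.02 over all genes. Over all genes 8.45% were called higher and 8.36% lower. JAK1, a kinase of all interferon receptors, was at 97.1 and 75.1 CPM in WT and 193 and 189 CPM in KO (log2 FC 1.15, SE 0.14, adjusted p 0.00144), and JAK2, a kinase of the interferon gamma receptor, at 5.63 and 5.27 CPM in WT and 17.1 and 17.5 CPM in KO (log2 FC 1.66, SE 0.20, adjusted p 0.00139). SOCS1 and SOCS3 are feedback inhibitors of these kinases. SOCS1 was at 0.71 and 0.461 CPM in WT and 3.61 and 3.42 CPM in KO (log2 FC 2.57, SE 0.42, adjusted p 0.0046) and SOCS3 at 20.7 and 30.6 CPM in WT and 65.4 and 69.3 CPM in KO (log2 FC 1.39, SE 0.19, adjusted p 0.00235). IFNLR1, a receptor chain for lambda interferons, was at 1.8 and 1.89 CPM in WT and 0.148 and 0.27 CPM in KO (log2 FC -3.09, SE 0.57, adjusted p 0.00756), and was not called without S1 (adjusted p 0.0687). Without S5 the FC of JAK1 was below 2 (log2 FC 0.97).

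Of 17 further sensing genes tested in NPCs, 4 were called higher and none lower, with a median log2 FC of 0.46. The shares over all genes were 8.45% higher and 8.36% lower. Values are given for 3 of the 4 called genes. This list was mixed: both KO libraries lay above both WT libraries for 11 of the 17 and below them for 5. Of the lower genes, 2 had an adjusted p below 0.05 with an FC under 2. AIM2 was lower by more than the FC threshold (log2 FC -1.23, SE 0.39) but did not pass by edgeR (adjusted p 0.0551). STING1, the adaptor of cytosolic DNA sensing, stood out with 29 and 7 counts in WT and 1167 and 1034 in KO (log2 FC 5.88, SE 0.43, adjusted p 0.000204). ZC3HAV1, an antiviral protein that binds CpG-rich RNA, was at 9.99 and 18.8 CPM in WT and 42.8 and 57.7 CPM in KO (log2 FC 1.80, SE 0.30, adjusted p 0.00499). TICAM1, the adaptor of TLR3, was at 0.615 and 1.43 CPM in WT and 3.31 and 3.15 CPM in KO (log2 FC 1.66, SE 0.48, adjusted p 0.0396). STING1 was nearly absent from WT NPCs, whereas the call of TICAM1 was lost without S1 (adjusted p 0.175) and without S2 (0.149). With either library left out 2 of the 4 were called.

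Of 37 further interferon-stimulated genes tested in NPCs, 16 rose and none fell, with a median log2 FC of 1.40. Over all genes 8.45% were called higher and 8.36% lower. Of the 37, SAMD9L, GBP3, CXCL11 and APOL1 passed the filter on low counts through the KO libraries alone, and of the other 33 genes 13 rose. The 4 with the lowest adjusted p are given. SP100, a component of PML nuclear bodies, was at 0.71 and 0.768 CPM in WT and 23.4 and 30.3 CPM in KO (log2 FC 5.17, SE 0.27, adjusted p 5.59e-05). GBP1, a guanylate-binding protein, was at 0.473 and 0.256 CPM in WT and 24.6 and 34.1 CPM in KO (log2 FC 6.30, SE 0.35, adjusted p 6.94e-05). SAMD9L, the paralog of SAMD9, had 0 and 2 counts in WT and 184 and 264 in KO, with a ratio of pooled counts of 215 and a 95% counting interval of 59.1 to 1777 (adjusted p 0.000317). All 3 were under 1 CPM in both WT libraries. ZNFX1, an RNA sensor at mitochondria, was at 17.8 and 19 CPM in WT and 43.3 and 43.8 CPM in KO (log2 FC 1.24, SE 0.14, adjusted p 0.00102). Of 12 further class I genes 6 rose, against 8.45% of all genes, with a median log2 FC of 1.03. HLA-E was at 32.8 and 27.2 CPM in WT and 72.9 and 73.7 CPM in KO (log2 FC 1.29, SE 0.14, adjusted p 0.000834). NLRC5, the transactivator of class I genes, was at 0.237 and 0.461 CPM in WT and 3.36 and 3.24 CPM in KO (log2 FC 3.23, SE 0.48, adjusted p 0.00315). HLA-F had 4 and 2 counts in WT and 34 and 43 in KO (log2 FC 3.57, SE 0.61, adjusted p 0.00534). Over all 12 class I genes, called or not, both KO libraries lay above both WT libraries for 9, against 33.3% of all genes. ERAP2, a peptide-trimming protease, was at 0.379 and 1.69 CPM in WT and 7.95 and 10.8 CPM in KO (log2 FC 3.19, SE 0.59, adjusted p 0.00723). TAP2 was at 0.615 and 2.51 CPM in WT and 9.09 and 11.7 CPM in KO (log2 FC 2.74, SE 0.56, adjusted p 0.0113), and without S2 its adjusted p was 0.0588. PSMB10 was at 0.71 and 1.43 CPM in WT and 3.41 and 4.23 CPM in KO (log2 FC 1.84, SE 0.44, adjusted p 0.0213), and its adjusted p was 0.0832 without S1 and 0.135 without S2.

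In HEK293T cells none of the 44 genes was called in KO, by edgeR, DESeq2 or voom. Of these genes 41 were listed in the table and 32 had enough counts to be tested. Of all 19018 genes tested 0.478% were called higher and 0.0105% lower. At an unadjusted p below 0.05 there were 5 of the 32 genes, all higher, against 4.43% of all genes. Fitted log2 FC was above 0 for 25 of 32, against 51.4% of all genes, with a median of 0.19 against 0.01. Among the 32, IFIT2, BST2 and TRIM22 passed the filter on low counts through the KO libraries alone, and of the other 29 genes 22 were above 0, with a median of 0.16. All 3 KO libraries lay above all 3 WT libraries for 6 of 32, against 7.16% of all genes. The 20 genes at 1 CPM or more had a log2 FC between -0.26 and 1.22, with SE from 0.16 to 0.45.

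**Figure D4:**
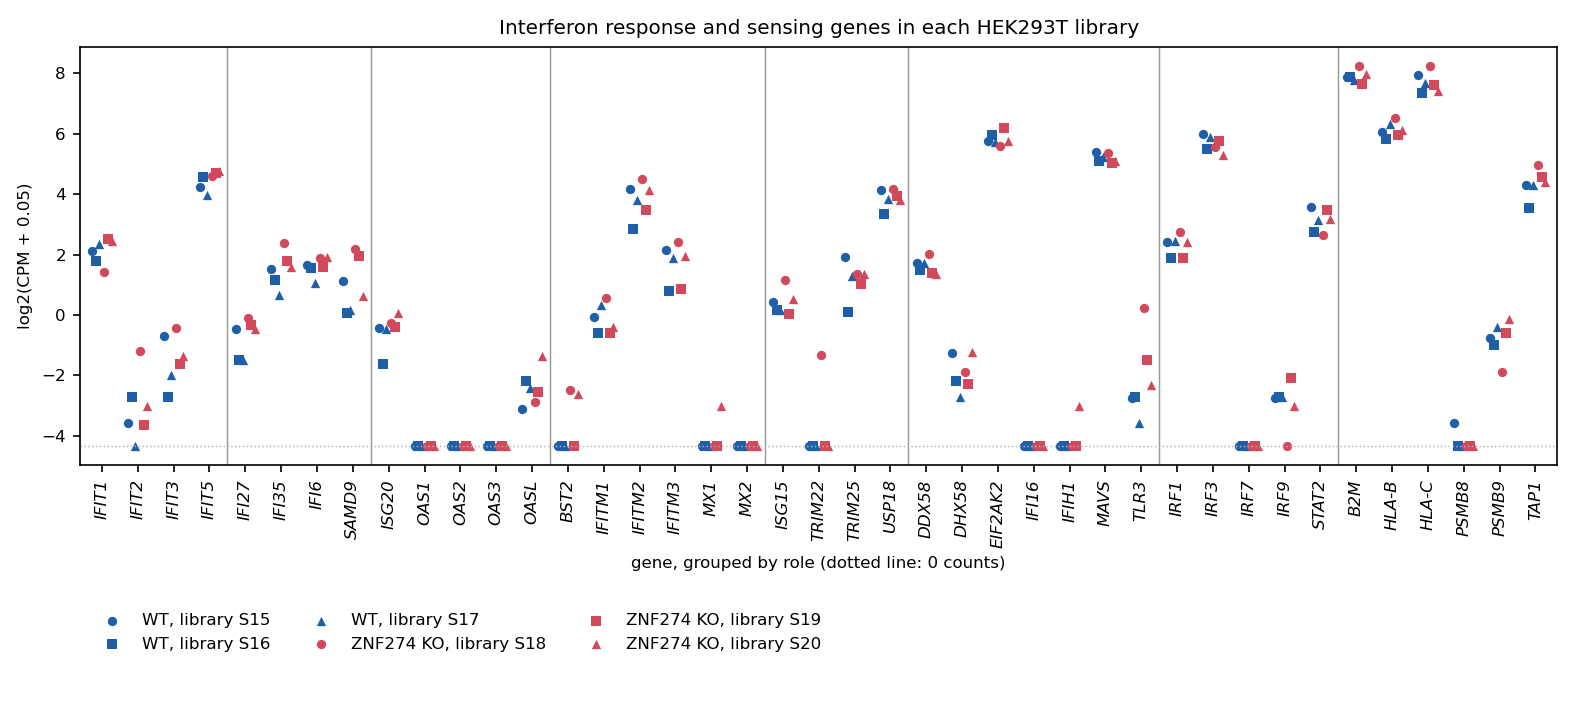
Level of the 41 listed genes in the 6 HEK293T libraries, as log2(CPM + 0.05), grouped by role, with WT in blue and KO in red. For 6 genes all red points lie above all blue points, 6 genes lie at 0 counts in every library, and the KO library S18 (red circles) is often the highest.

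Some of the genes were silent in HEK293T cells in both genotypes. IFI16, MX2, OAS1, OAS2, OAS3 and IRF7 had 0 counts in all 6 libraries, where 3 counts correspond to 0.0921 to 0.131 CPM. IFIH1, MX1 and PSMB8 had no more than 2 counts in any library. OAS1, OAS2, OAS3 and MX2, which rose in KO NPCs, therefore gave no reads in HEK293T cells with or without ZNF274. IFI44, IFI44L and XAF1 were not analysed here in HEK293T cells.

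The 3 genes with the lowest p were TLR3, SAMD9 and IFI35. TLR3 had 3, 3 and 1 counts in WT and 26, 10 and 4 in KO (log2 FC 2.65, SE 0.87, unadjusted p 0.0115 and adjusted p 0.508 by edgeR). Every KO count exceeded the WT counts, but S18 held most of them. SAMD9 was at 2.14, 0.998 and 1.08 CPM in WT and 4.54, 3.81 and 1.49 CPM in KO, with the lowest KO library under the highest WT library (adjusted p 0.594). IFI35 was at 2.8, 2.17 and 1.52 CPM in WT and 5.2, 3.41 and 2.99 CPM in KO, without overlap (adjusted p 0.64). TAP1 and IFIT5 completed the 5 genes at an unadjusted p below 0.05. BST2 had 0, 0 and 0 counts in WT and 3, 0 and 3 in KO and TRIM22 0, 0 and 0 counts in WT and 8, 0 and 0 in KO, so their large fitted changes rest on single-digit counts.

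The most abundant of these genes per length in WT HEK293T cells were HLA-C, B2M and IRF3, at 81.4, 73.7 and 14.8 RPKM. HLA-C was at 244, 164 and 204 CPM in WT and 303, 194 and 169.8 CPM in KO (log2 FC 0.12, adjusted p 0.927). B2M was at 237, 234 and 219.9 CPM in WT and 303, 203 and 251 CPM in KO (log2 FC 0.13, adjusted p 0.896). IRF3 was at 63.9, 45.4 and 59.4 CPM in WT and 47.2, 54.7 and 39.4 CPM in KO (log2 FC -0.26, adjusted p 0.815). Genotypes overlapped for all 3. In HLA-C and B2M the highest value was that of S18, and without it the fitted log2 FC was -0.17 and -0.02. S18 was the highest of the 6 libraries for 19 of the 32 tested genes, against 28.2% of all genes, and it was the shallowest. With a library left out the median log2 FC of the tested genes ran from 0.12 (without S16) to 0.44 (without S19), and was 0.41 without S15 and 0.15 without S18. The pathway lists had no called gene in HEK293T cells either, among 15 receptor and JAK-STAT genes, 14 sensing genes, 23 interferon-stimulated genes and 12 class I genes tested. At an unadjusted p below 0.05 these lists held 1, 0, 2 and 2 genes, in that order, all higher, against 4.43% of all genes.

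**Figure D5:**
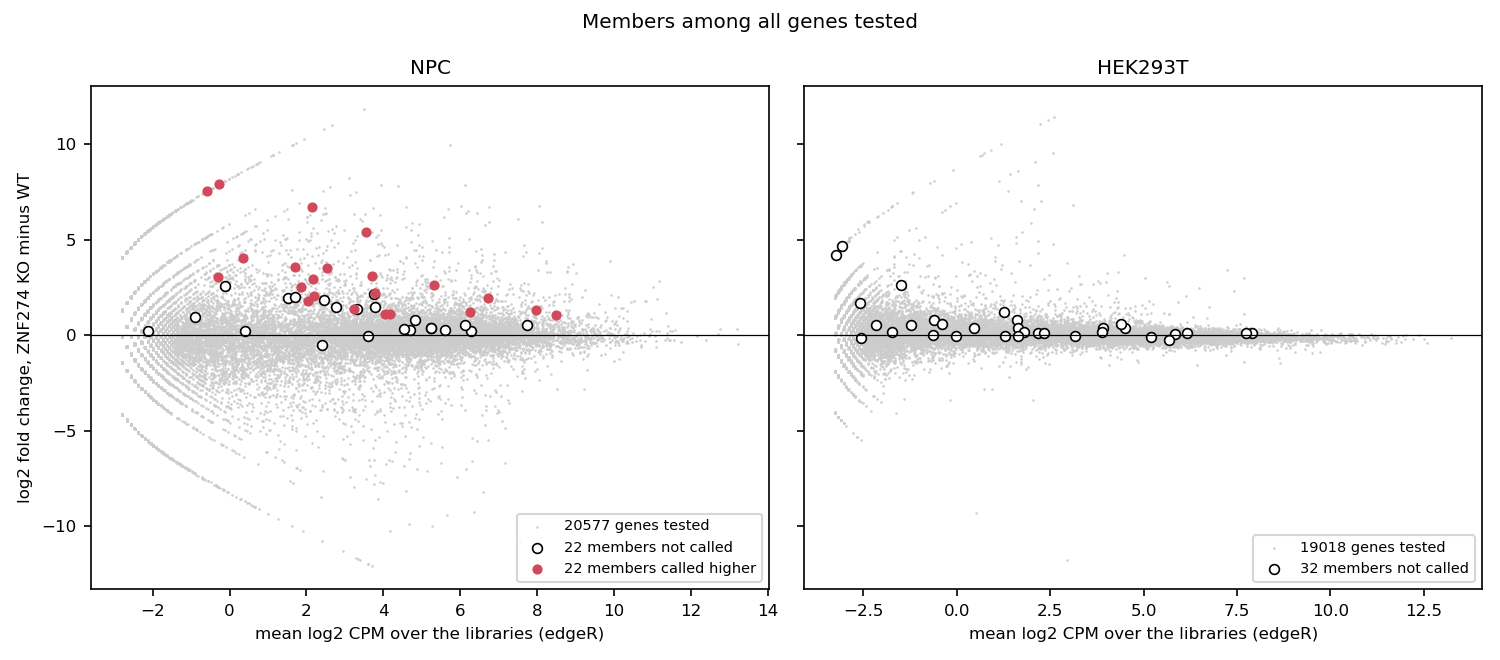
Fitted log2 FC of KO over WT against mean log2 CPM for all genes tested (grey), in NPCs (left, 20577 genes) and HEK293T cells (right, 19018 genes). Red points are the 22 called genes of the group, which all lie above 0, and open points are the group's other tested genes.

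The difference between the cell types was tested itself, as the KO effect in NPCs minus that in HEK293T cells over all 10 libraries. Of 41 genes listed in both tables, 8 had a larger rise in NPCs and none a smaller one by edgeR, against 6.01% of all 19255 genes called in that direction and 6.22% in the other. At an unadjusted p below 0.05 there were 13 in either direction (29.5% of all genes). For the 6 genes with 0 counts in HEK293T cells this test carries no information. Over the 32 genes with enough counts to be tested in each cell type, the difference was above 0 for 28, against 49.7% of the 17506 such genes, and its median was 0.97 against -0.0057. IRF1 (difference 3.02, SE 0.41, adjusted p 0.000523), B2M (difference 1.24, SE 0.22, adjusted p 0.00309) and USP18 (difference 2.38, SE 0.44, adjusted p 0.00356) were called with each library left out. USP18 was far lower in WT NPCs (0.994 and 1.07 CPM) than in WT HEK293T cells (17.4, 10.1 and 14.2 CPM), where KO changed it little (18.2, 15.2 and 13.8 CPM). IRF1 in HEK293T cells was at 5.31, 3.65 and 5.39 CPM in WT and 6.64, 3.65 and 5.27 CPM in KO, with the genotypes interleaved.

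The other 5 called differences were each lost when a single library was left out, and all but OASL with any of several libraries. OASL (difference 7.34, SE 1.73, adjusted p 0.0155) was not called without S3 (adjusted p 0.0505), and its fitted value depends on the 0 counts in WT NPCs. SAMD9 (difference 4.22, SE 1.05, adjusted p 0.0177) was not called without S1 (0.0533) or without S2 (0.0618). PSMB9 (difference 4.09, SE 1.12, adjusted p 0.0286) was not called without S17 (0.0668), without S3 (0.0843) or without S2 (0.113). Each of these 3 genes had 0 counts in at least 1 WT NPC library, and the difference ran from 3.19 without S3 to 10.99 without S5 for SAMD9 and from 3.08 to 8.83 for PSMB9. HLA-B (difference 1.09, SE 0.28, adjusted p 0.0215) was not called without S17, S3 or S2 (adjusted p 0.0588, 0.0884 and 0.0979) and had an FC under 2 without S19 (log2 0.93). IFITM1 (difference 1.99, SE 0.55, adjusted p 0.0294, 2.59 without S5) was lost without any one of S15, S17, S19, S20, S3 and S1 (adjusted p 0.0641 without S20 and 0.109 without S1 among them), with voom (adjusted p 0.074) and with library size alone (0.0526). Library size alone also lost HLA-B (adjusted p 0.0661). The count of 8 became 4 without S3, and 5 without S17 or without S2. For the other 14 genes called in NPCs the difference was not called, and 5 of them (MX2, OAS1, OAS2, OAS3 and XAF1) had 0 counts or no entry in HEK293T cells.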

How the data were processed

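RNA-seq libraries (Illumina TruSeq stranded mRNA) of 3 WT and 3 ZNF274 KO HEK293T and of 2 WT and 2 ZNF274 KO NPC samples were analysed, and groups were taken from the sample labels. The authors aligned to hg19 with HISAT2, used featureCounts on reads that mapped once, and deposited raw counts for each gene, with a table for each cell type. HISAT2 was run with its strand option for stranded data, while the strand option of featureCounts, versions and annotation release are not given in the sources used here. Libraries held 18621266 to 32285876 counts. The members, gene lists and tests were chosen with earlier results of these data known. Identifiers were paired with symbols, exons and hg19 coordinates through GENCODE v44 lifted to hg19 (23273 of 24050 identifiers had a symbol), and DDX58 was found as RIGI through a RefSeq synonym.

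Genes whose total count was at least the number of libraries were tested, separately in each cell type, by the quasi-likelihood test of edgeR 4.0.16 under R 4.3.3, with TMM normalization and Benjamini-Hochberg adjustment over all genes tested. Calls needed an FC above 2 and an adjusted p below 0.05. The interaction was fitted over 10 libraries and 19255 genes of both tables. The methods of the study use voom, run here as an alternative (limma 3.58.1) beside DESeq2 1.42.0, DESeq2 size factors, library size alone, filterByExpr, no filter, other thresholds, all 10 libraries in 1 fit, and each library left out. Levels in RPKM use the merged exon length. A floor of 3 counts was used, and floors and counting intervals (exact, 95%) cover counting error alone. Genes given with each library's value were ZNF274, each called member, in HEK293T the 3 lowest p and 3 highest levels per length, and each called pathway gene (the 4 lowest adjusted p where a list had more than 8), except that values of a few pathway genes are not reported here.

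Simulated counts were used to check the tests. Recovery at low counts was not checked, since the genes to change were drawn above a minimum mean count. In each design 200 such genes were changed 4-fold. With the spread of each gene following the trend, edgeR recovered 95.5% of them over 18689 genes in the HEK293T design with 4.02% false calls, 91% over 20208 genes in the NPC design with 4.71% false calls, and 81.5% over 19126 genes for the interaction with 6.32% false calls. A first simulation with a spread estimated for each gene gave 92%, 88.5% and 71.5% recovered and 5.64%, 16.1% and 7.74% false calls over 18693, 20176 and 19107 genes. False calls in the NPC design were then well above the nominal 5%, and robust estimation in edgeR was added as an alternative after that was seen. The alternatives for the pathway and marker lists were also added later. Motif searches used RefSeq promoter windows on GRCh38.p14, whose coordinates are not those of hg19. Other assays of the study were not analysed here.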

Additional observations from a re-analysis of the deposited data

Results flagged for a closer look

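For 8 of the 41 genes listed for both cell types the KO effect in NPCs exceeded that in HEK293T cells by edgeR's interaction test. Of all 19255 genes 6.01% were called in that direction. Each of the 8 is given here with its difference on the log2 scale. The values were 7.34 for OASL, 4.22 for SAMD9, 4.09 for PSMB9, 3.02 for IRF1, 2.38 for USP18, 1.99 for IFITM1, 1.24 for B2M and 1.09 for HLA-B. Each of the 8 was also called higher in KO NPCs and none in KO HEK293T cells, and for OASL, SAMD9 and PSMB9 the fitted size rests on 0 counts in at least 1 WT NPC library. Whether the loss of progenitor markers in the KO NPC libraries has a part in these differences was not tested. Groups of 2 and 3 libraries are too small for a test of single outlying libraries.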

How the results depend on the processing

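The count of 22 genes called higher in KO NPCs ran from 15 to 25 over the alternatives that kept all libraries, was 17 with robust estimation (IFITM1, IFITM3, OAS1, OAS3 and SAMD9 were lost), and ran from 15 to 30 with a library left out. DESeq2 kept 19 of the 22. No gene of the group was called lower in NPCs, and none in either direction in HEK293T cells, under any alternative. Where a library was left out of an NPC group, the lone library of that group was assumed to vary like the other group. The interaction count of 8 became 3 at an adjusted p below 0.01, and ran from 4 to 10 with a library left out. With a library left out, called receptor and JAK-STAT genes that fell ran from 0 to 1 and called sensing genes that rose from 2 to 4. With a library left out, the log2 FC in HEK293T cells ran from -0.17 (without S18) to 0.29 for HLA-C, which was -0.01 without S16, and from -0.023 (without S18) to 0.28 for B2M, and neither was called in any fit. Library size alone moved the median log2 FC of all genes in NPCs from -0.02 to -0.13 and that of the interaction from -0.03 to -0.24. It moved the median of the 44 genes in NPCs from 1.51 to 1.39, and the interaction median of the 32 genes tested in each cell type from 0.97 to 0.75. The cause of these shifts was not tested. No paired analysis was possible because the library numbers in the labels are not shared between WT and KO groups. Depth limits the genes with 0 to 3 counts, and 2 libraries per NPC group limit the precision of each call there.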
